A study of Mus musculus with 6 samples.

Results

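The 10 genes of the transforming growth factor beta (TGF-beta) pathway followed here, in regulatory T cells of mouse bone marrow, were the ligand gene Tgfb1, the receptor genes Tgfbr1 and Tgfbr2, the signal transducers Smad2, Smad3 and Smad4, the inhibitory Smad7, the feedback inhibitors Pmepa1 and Skil, and the ubiquitin ligase gene Smurf1. They were chosen by name for their place in the pathway, with earlier results of these data known. All 10 were found among the 47643 genes of the tables and had enough counts to be tested. The cells were sorted as CD4+ and positive for a GFP reporter of FOXP3, so Cd4 and Foxp3 served to choose the cells. The myeloma group holds 3 libraries, replicates 3, 4 and 5, from marrow of mice injected with Vk*MYC cells, a transplantable mouse model of multiple myeloma in which a MYC transgene is switched on in germinal centre B cells and the tumour is made of plasma cells. The control group holds 3 libraries, replicates 1, 3 and 5, from marrow of control mice. Strain, age, sex, the time after injection and what the controls received are not stated in the labels. The series title concerns the type I interferon receptor and the expansion of these cells, and the comparison asks how their transcripts differ between myeloma and control marrow.

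TGF-beta is secreted in a latent form and is freed from its latency peptide at the cell surface. The active ligand joins TGFBR2 and TGFBR1, and TGFBR1 then phosphorylates SMAD2 and SMAD3, which enter the nucleus with SMAD4. Among the genes that this complex switches on are Smad7, Skil and Pmepa1, whose products damp the signal. In T cells the pathway is known for inducing Foxp3 in the periphery, for the integrin CD103 and for restraining cytotoxic genes. Activity of the pathway rests largely on phosphorylation, which RNA-seq does not measure.

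Markers of the labelled cell type were present in every library: 7 regulatory T cell genes (Foxp3, Il2ra, Ctla4, Ikzf2, Cd4, Cd3e, Cd3g) summed to between 4634 and 4885 CPM, counts scaled to a common library size, in myeloma and between 4234 and 5633 CPM in control libraries. The scaling includes TMM, edgeR's factor for differences in RNA composition. Total expected counts, RSEM's estimates of reads per gene, ran from 10240620 to 13314631 per library. Of the 13235 genes tested with edgeR's quasi-likelihood test, 6.33% were called higher and 4.69% lower in myeloma (838 and 621 genes) at a Benjamini-Hochberg adjusted p under 0.05, together 11.0%. With library sizes in place of TMM factors the split turned to 633 higher and 1004 lower.

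For the regulatory sequence around the members that fell, the 250 bases before the RefSeq transcription start are shown for Tgfbr2 and Smurf1, with those of Tgfbr1, the partner receptor whose level was not called different. RefSeq's table (GRCm38.p6) held an entry for 5 of the 10 genes, Tgfb1, Tgfbr1, Tgfbr2, Smad3 and Smurf1. Each sequence is given 5′ to 3′ on the gene's own strand, and capitals mark 2 motifs searched on both strands, CAGAC (or GTCTG), the short element that SMADs bind, and GGGCGG (or CCGCCC), the GC box of SP1-type factors. The windows are chr9:116175364-116175613 on the minus strand for Tgfbr2, chr4:47352972-47353221 on the plus strand for Tgfbr1 and chr5:144965831-144966080 on the minus strand for Smurf1.
Tgfbr2: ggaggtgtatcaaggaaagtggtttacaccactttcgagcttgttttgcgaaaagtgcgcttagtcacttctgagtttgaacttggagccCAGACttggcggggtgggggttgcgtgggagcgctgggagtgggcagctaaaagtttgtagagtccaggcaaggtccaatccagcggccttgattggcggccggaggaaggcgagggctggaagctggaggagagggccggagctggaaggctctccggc
Tgfbr1: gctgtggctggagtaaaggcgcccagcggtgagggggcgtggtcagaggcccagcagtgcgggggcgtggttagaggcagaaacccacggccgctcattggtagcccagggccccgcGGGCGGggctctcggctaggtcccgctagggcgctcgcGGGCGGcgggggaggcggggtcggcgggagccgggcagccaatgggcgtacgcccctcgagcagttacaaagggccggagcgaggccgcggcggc
Smurf1: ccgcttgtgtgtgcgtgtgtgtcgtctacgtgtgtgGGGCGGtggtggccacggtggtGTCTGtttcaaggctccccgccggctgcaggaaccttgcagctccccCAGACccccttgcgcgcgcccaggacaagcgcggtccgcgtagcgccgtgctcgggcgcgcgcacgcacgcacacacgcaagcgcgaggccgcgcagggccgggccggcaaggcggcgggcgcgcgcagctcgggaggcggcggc

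The Tgfbr2 window held 1 CAGAC match, 160 bases before the start, and no GC box. The Smurf1 window held 2 CAGAC matches, at 192 and 145 bases before the start, and 1 GC box, and the Tgfbr1 window shown held 0 CAGAC matches and 2 GC boxes. RefSeq gives Tgfbr1 another start 32994 bases downstream, whose window, not shown, held 1 CAGAC match, 203 bases before that start, and 0 GC boxes. No match overlapped another. Windows of Tgfb1 and Smad3 had 0 CAGAC matches and 5 and 2 GC boxes. Among all 32851 windows of this length, 42.2% held CAGAC and 32.7% a GC box, so neither match is rare. The SMAD palindrome GTCTAGAC, in 0.167% of all windows, was in none of these 6.

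In regulatory T cells from myeloma marrow, 2 of the 10 genes rose and 2 fell. Pmepa1, which encodes a membrane protein that sequesters SMAD2 and SMAD3, rose 1.93-fold, and Skil, which encodes the SMAD corepressor SnoN, rose 1.41-fold. Tgfbr2, the ligand-binding receptor, fell to 0.772 of its control level, and Smurf1, a ubiquitin ligase for SMADs and the receptor, to 0.739. The share called, 4 of 10, stands beside 11.0% of all genes tested. The median log2 fold change of the 10 genes was 0.02, as it was for all genes tested (0.02). In 7 of the 10 the values of the groups stood apart without overlap, and 33.3% of all genes tested were separated likewise.

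**Figure D1:**
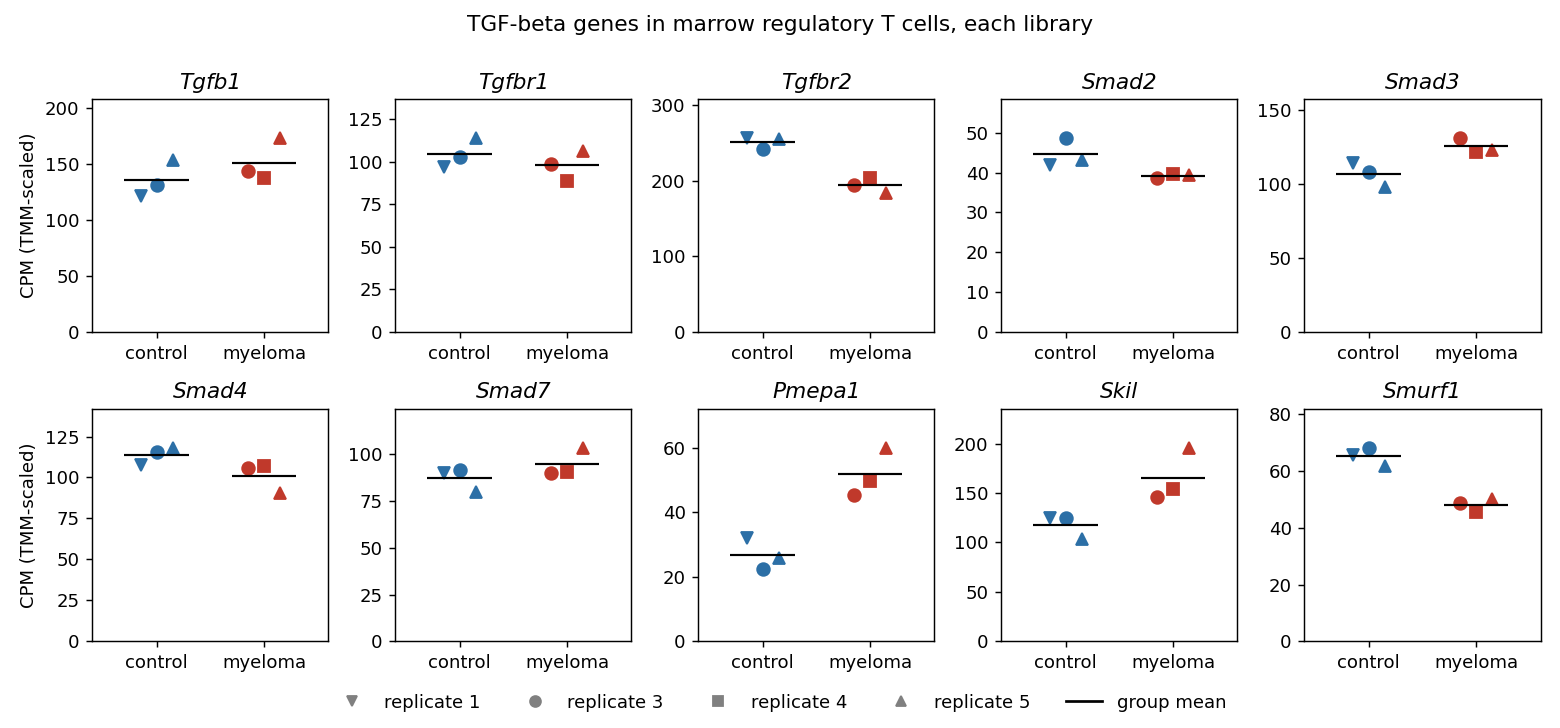
Level of each of the 10 genes in CPM (vertical axes from 0) in the 3 control (blue) and 3 myeloma (red) libraries, with symbols for replicate numbers and a line at each group mean. The groups are apart for Pmepa1 and Skil, which are higher in myeloma, and for Tgfbr2 and Smurf1, which are lower, and they overlap for Tgfb1, Tgfbr1 and Smad7.

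The ligand gene Tgfb1 was at 143, 137 and 173 CPM in myeloma replicates 3, 4 and 5 and at 122, 131 and 153 CPM in control replicates 1, 3 and 5. The highest control library lay above the lower myeloma libraries, and the difference was not called (log2 fold change 0.16, SE 0.12, 95% interval -0.11 to 0.43, adjusted p = 0.43 by edgeR). Tgfb1 was more abundant per transcript length than any other of the 10 genes, at 103 ± 10.2 TPM in myeloma and 111 ± 14.5 TPM in control libraries (SD, n = 3 each). TPM are the authors' RSEM values, scaled for transcript length and library total.

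Tgfbr2 (ENSMUSG00000032440.12, 9:116084293-116175360 on the minus strand in GRCm38, the assembly of mm10) was at 195, 204 and 184 CPM in the 3 myeloma libraries and at 256.5, 242 and 256 CPM in the 3 controls. Every control library lay above every myeloma library, by at least the step from 204 to 242 CPM. Tgfbr2 fell by 0.37 on the log2 scale (SE 0.08, 95% interval of the change -0.55 to -0.19, adjusted p = 0.0205 by edgeR). In these bulk libraries fewer cells that express a gene and less RNA per cell cannot be told apart. The call was lost when myeloma replicate 3 (adjusted p = 0.0661) or 4 (0.0519) or control replicate 3 (0.0632) or 5 (0.0597) was left out, with the log2 fold change between -0.41 and -0.34 over the 6 such fits by edgeR. Correcting each library for the length and GC content of transcripts brought the change to -0.21 (adjusted p = 0.225).

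Its partner Tgfbr1, the kinase that phosphorylates SMADs, was at 98.9, 88.9 and 106 CPM in myeloma and 96.7, 103 and 114 CPM in control libraries. These ranges overlapped, and the log2 fold change of -0.09 (SE 0.10, 95% interval -0.31 to 0.13) was not called by edgeR, with adjusted p = 0.601. Whether the 2 receptors differ from each other in their change was not tested.

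Smad3, a transducer activated by TGFBR1, was at 131, 122 and 123 CPM in myeloma and 114, 108 and 97.7 CPM in control libraries. All 3 myeloma values were above all 3 control values, but the log2 fold change of 0.23 (SE 0.09, 95% interval 0.04 to 0.43) did not pass the adjustment over all genes (unadjusted p = 0.0235, adjusted p = 0.114 by edgeR). Smad2, the other receptor-activated SMAD, stood the opposite way round, at 38.7, 39.6 and 39.4 CPM in myeloma and 41.9, 48.6 and 43.3 CPM in controls, without overlap and without a call (log2 fold change -0.18, 95% interval -0.40 to 0.03, adjusted p = 0.254 by edgeR). Smad4, their common partner, was at 106, 107 and 90.7 CPM in myeloma and 107.4, 115 and 118 CPM in control libraries. The highest myeloma library (106.8 CPM) nearly reached the lowest control (107.4 CPM), and the change of -0.17 (95% interval -0.38 to 0.04) had an adjusted p = 0.266 by edgeR. Smad2 and Smad3 share sequence, and RSEM divides reads that fit both by a model, so how their counts are split is uncertain.

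Among the genes for inhibitors, Smad7, whose product blocks the receptor and brings ubiquitin ligases to it, was at 89.7, 90.7 and 104 CPM in myeloma and 89.9, 91.5 and 79.8 CPM in control libraries. The values of the groups interleaved (log2 fold change 0.12, SE 0.09, 95% interval -0.09 to 0.33, adjusted p = 0.446 by edgeR).

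Pmepa1 (ENSMUSG00000038400.15, 2:173224458-173276533 on the minus strand) was at 45.4, 49.7 and 60.0 CPM in myeloma replicates 3, 4 and 5 and at 32.1, 22.5 and 25.9 CPM in control replicates 1, 3 and 5. The lowest myeloma library stood above the highest control. Its log2 fold change was 0.94 (SE 0.16, 95% interval 0.59 to 1.30, adjusted p = 0.00777 by edgeR), from 26.8 ± 4.85 CPM (SD, n = 3) to 51.7 ± 7.52 CPM (n = 3). Whichever library was left out, the call was kept, at log2 fold changes of 0.82 to 1.08 and edgeR adjusted p of 0.00618 to 0.0370.

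Skil (ENSMUSG00000027660.16, 3:31095058-31122577 on the plus strand) was at 146, 154 and 196 CPM in myeloma and 124.3, 124.8 and 103 CPM in control libraries. The groups did not overlap, and myeloma replicate 5 was well above the others. The log2 fold change was 0.49 (SE 0.13, 95% interval 0.21 to 0.78, adjusted p = 0.0411 by edgeR). The call was lost whichever library was left out, with adjusted p of 0.0555, 0.0866 and 0.0746 without myeloma replicates 3, 4 and 5 and 0.0658, 0.0993 and 0.134 without control replicates 1, 3 and 5. It was also lost with library sizes alone (adjusted p = 0.0517 by edgeR) and with an effective-length offset (0.0553), and kept with the length and GC correction (0.0225).

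Smurf1 (ENSMUSG00000038780.14, 5:144876495-144965847 on the minus strand) was at 48.8, 45.5 and 50.1 CPM in myeloma and 65.5, 68.3 and 61.9 CPM in control libraries. The groups lay well apart relative to their spread (SD 2.35 and 3.23 CPM, n = 3 each). Smurf1 fell by 0.44 on the log2 scale (SE 0.09, 95% interval of the change -0.64 to -0.24, adjusted p = 0.0173 by edgeR). Without myeloma replicate 4 the adjusted p was 0.0638 and without control replicate 3 it was 0.0828. With the length and GC correction the change was -0.32 (adjusted p = 0.0814).

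**Figure D2:**
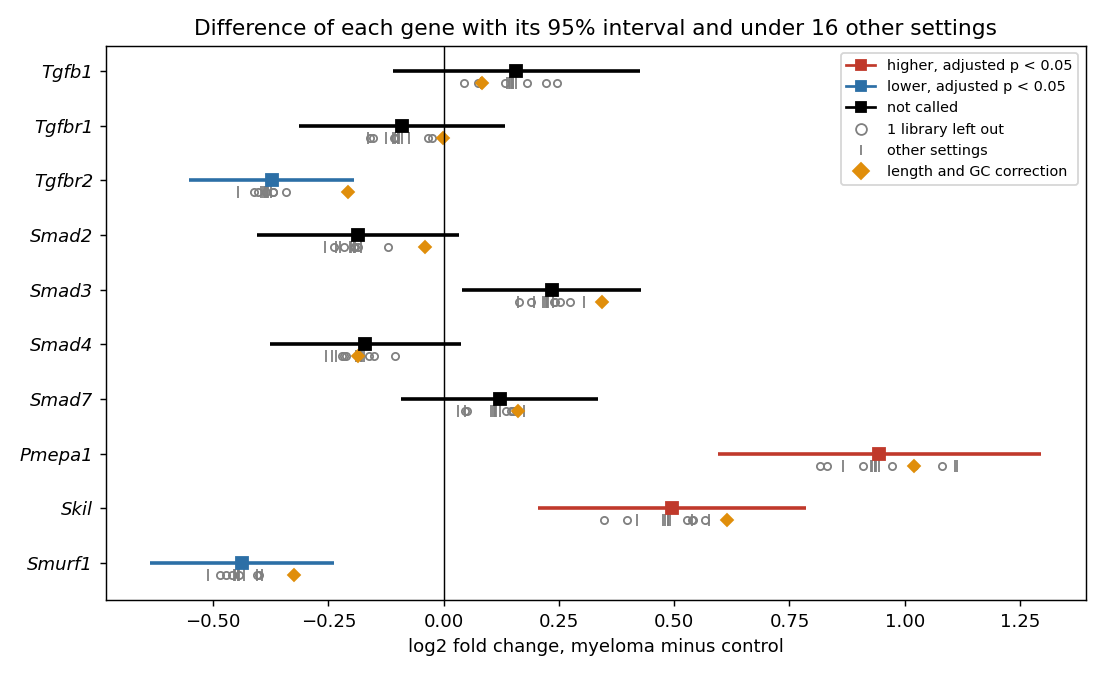
Log2 fold change (myeloma minus control) of each gene with its 95% interval, coloured by call, and below it the values when 1 library was left out (circles), under other settings (ticks) and with the length and GC correction (diamonds). Pmepa1 stays between 0.82 and 1.11 throughout, and the diamond of Tgfbr2 at -0.21 lies nearer to 0 than its other values.

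Levels can be compared between genes on the TPM scale. In control libraries the order of mean TPM was Tgfb1 (111), Tgfbr2 (84.9), Smad4 (73.2), Smad7 (38.4), Smad3 (34.2), Smad2 (32.2), Tgfbr1 (29.97), Skil (28.2), Smurf1 (20.2) and Pmepa1 (16.7). From Smad7 down to Skil each neighbour overlapped the next over its 3 libraries, as did Tgfbr2 with Smad4 and Smurf1 with Pmepa1. The step from Tgfb1 to Tgfbr2, that from Smad4 to Smad7 and that from Skil to Smurf1 lay between ranges that did not overlap. In myeloma libraries Tgfb1 (103), Tgfbr2 (55.1) and Smad4 (52.4) again led, followed by Skil at 34.7 TPM, Pmepa1 was at 30.1 TPM, ranked 7, and Smurf1 was last at 12.98. The ranges of Tgfbr1 in the groups did not meet in TPM (21.8 to 24.1 in myeloma, 27.2 to 34.2 in controls), although they did in CPM, and the same held for Smad7 (32.0 to 34.1 and 34.7 to 41.9). On that scale, however, the median gene tested with TPM above 0 in every library (12980 genes) stood 0.24 lower in myeloma on the log2 scale. Relative to that median Tgfbr1 was at -0.13, Tgfbr2 at -0.39, Smurf1 at -0.41, Skil at 0.53 and Pmepa1 at 1.10, while Tgfb1 (0.14), Smad3 (0.20) and Smad7 (0.03), whose raw TPM were lower in myeloma, had positive values as in CPM.

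**Figure D3:**
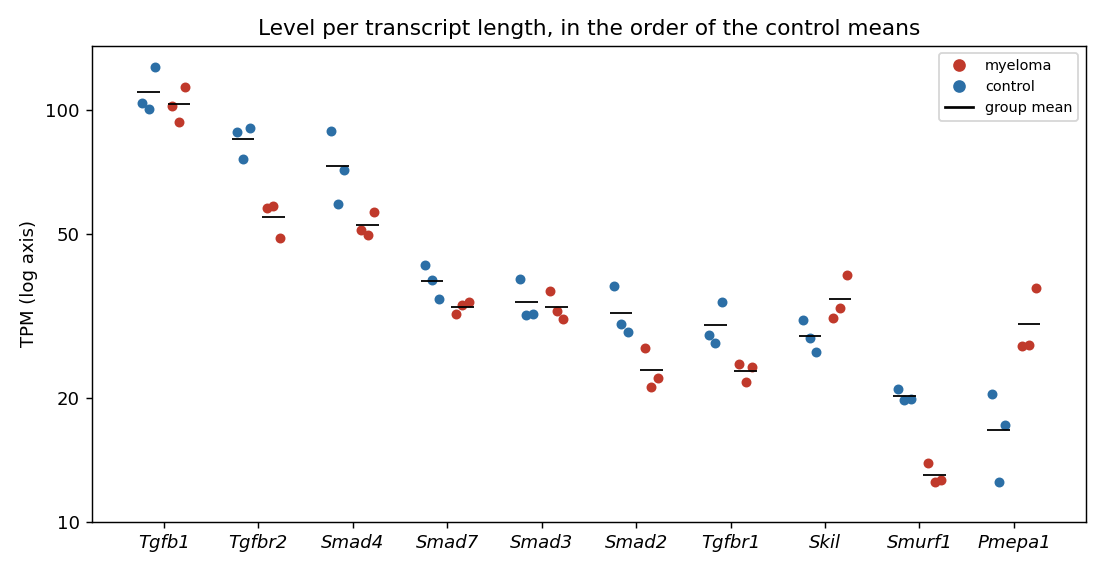
TPM of each gene (log axis) in the 3 control (blue) and 3 myeloma (red) libraries, ordered by the control mean, with a line at each group mean. Tgfb1 is highest in both groups, and Pmepa1, the lowest of the controls at 16.7 TPM, is at 30.1 TPM in myeloma.

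The tables also give, per library, the mean length of a gene's transcripts weighted by RSEM's estimate of each isoform. For Smurf1 it was 4977, 4957 and 5014 bases in myeloma and 5093, 5144 and 5173 bases in controls, so the groups did not overlap. Skil had 6514, 6291 and 6172 bases in myeloma and 6524, 6565 and 6581 in controls, also without overlap but with only about 10 bases (6514 against 6524) between the nearest libraries. Among the 9186 genes tested whose weighted length varied at all, 13.5% had groups that did not overlap. The other 8 genes overlapped. Smad4 ranged from 2094 to 3006 bases and Smad2 from 1957 to 2626 bases, a spread of 34.0% and 28.2% of their means, with long and short values in each group. Tgfbr2 varied by only 0.405% of its mean.

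Beyond these members, 102 other genes of the pathway were listed by role, also with earlier results of these data known, and 85 were tested. Of these 7 rose and 12 fell, beside 6.33% higher and 4.69% lower among all genes tested, and their median log2 fold change was -0.03, beside 0.02. The counts called in the lists below, each of 8 to 19 genes tested, stand beside the same shares, and a count of 1 is near them. List counts at an unadjusted p under 0.05 by edgeR stand beside 2019 higher and 1679 lower of all 13235 genes tested. Of the genes that produce and activate the ligand, 1 of 10 tested rose and 1 fell by edgeR, with 2 higher and 1 lower at an unadjusted p under 0.05. DESeq2 was run without edgeR's count filter, so its calls are counted over all 17 genes of the list, and likewise over the whole of each list below. It called 2 genes higher and 0 lower, and limma-voom 1 and 1. Itgav, the integrin chain that partners with ITGB8 to free the ligand, rose from 111 ± 20.6 to 192 ± 27.2 CPM (SD, n = 3 each) (log2 fold change 0.79, SE 0.15, edgeR adjusted p = 0.0131). Lrrc32, whose product GARP holds latent TGF-beta on the regulatory T cell surface, fell from 309 ± 77.7 to 156 ± 58.4 CPM, by 0.98 on the log2 scale (SE 0.26, adjusted p = 0.0422 by edgeR). Its groups nearly met, at 223 CPM in myeloma replicate 5 and 225 CPM in control replicate 5. With the replicate block the Lrrc32 change was -0.84 and was not called (adjusted p = 0.2515 by edgeR). The best expressed genes of the list without a call were Hsp90b1 (0.22), the chaperone of GARP, Furin (-0.03), the convertase that cuts the precursor, and Nrros (0.07), a GARP relative. The Lrrc32 call was lost without myeloma replicate 3 (adjusted p = 0.116) or 4 (0.148) or control replicate 1 (0.0829) or 3 (0.146), with DESeq2 (0.0511) and with the effective-length offset (0.0525). The Itgav call was lost without myeloma replicate 3 (0.0548) or 4 (0.0618) or control replicate 3 (0.0607).

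Among other receptors of the family, 1 of 8 tested fell and 0 rose by edgeR, with 1 higher and 2 lower at an unadjusted p under 0.05, and 0 rose by DESeq2 or limma-voom. The gene that fell was Bambi, a decoy receptor without a kinase. It rests on few reads, 21, 15 and 19 counts in the myeloma and 74, 137 and 74 counts in the control libraries, and its log2 fold change was -2.20 (SE 0.41, adjusted p = 0.0128 by edgeR; 0.0716 without control replicate 3 and 0.0543 without myeloma replicate 4). The activin receptor genes Acvr1b (-0.36) and Acvr2a (-0.34) and the BMP receptor gene Bmpr2 (0.29) were not called. With the length and GC correction Bmpr2 was called higher, at 0.49 (adjusted p = 0.0438 by edgeR).

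Of the other SMADs and nuclear partners, 2 of 10 tested fell and 0 rose by edgeR, where 0 were higher and 5 lower at an unadjusted p under 0.05, and 0 rose by DESeq2 or limma-voom. Trim33, a ubiquitin ligase that binds SMADs, fell from 107 ± 8.41 to 76.0 ± 7.67 CPM (log2 fold change -0.49, SE 0.10, edgeR adjusted p = 0.0179). Crebbp, the acetyltransferase coactivator CBP, fell from 316 ± 35.2 to 235 ± 10.3 CPM (log2 fold change -0.43, SE 0.10, edgeR adjusted p = 0.0268). Its relative Ep300 (-0.28), Sp1 (-0.28) and Cbfb (-0.01), the partner of RUNX factors, were not called by edgeR, but DESeq2 called Ep300 (adjusted p = 0.0271) and Sp1 (0.0398) lower, 4 genes of the list in all. In edgeR Ep300 was also called lower with the effective-length offset (adjusted p = 0.0415), with library sizes alone (0.0390) and without control replicate 1 (0.0458). Both calls were lost with the length and GC correction, Trim33 at -0.34 (adjusted p = 0.0915 by edgeR) and Crebbp at -0.21 (0.271), and with the effective-length offset that of Crebbp (0.0537). Leaving out myeloma replicate 3 or control replicate 3 or 5 also ended both calls (adjusted p from 0.0540 to 0.0944 by edgeR), and leaving out myeloma replicate 4 that of Crebbp (0.0956).

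Of the brakes and ubiquitin regulators, 3 of 18 fell and 0 rose by edgeR, where 1 was higher and 5 lower at an unadjusted p under 0.05, and 0 rose by DESeq2 or limma-voom. Itch, Smurf2 and Nedd4l, which fell, encode HECT-type ubiquitin ligases, as do Wwp1 (-0.33, adjusted p = 0.0918 by edgeR) and Wwp2 (0.01, adjusted p = 0.969), which were not called and are named after their values were seen. Itch went from 128 ± 7.57 to 94.0 ± 1.94 CPM (log2 fold change -0.44, SE 0.08, edgeR adjusted p = 0.0109), and its call was kept whichever library was left out. Smurf2 went from 55.7 ± 2.20 to 43.0 ± 3.37 CPM (log2 fold change -0.37, SE 0.10, edgeR adjusted p = 0.0394) and Nedd4l from 18.6 ± 1.36 to 12.2 ± 1.64 CPM (log2 fold change -0.61, SE 0.16, edgeR adjusted p = 0.0459). Each of these 2 calls was lost whichever library was left out, with adjusted p from 0.0549 to 0.126 for Smurf2 and from 0.0614 to 0.121 for Nedd4l, and with the length and GC correction (0.135 and 0.140). With the effective-length offset Nedd4l lost its call (adjusted p = 0.0750 by edgeR) and Smurf2 was at -0.59 (0.0299). Smurf1 and Smurf2 share sequence, so the division of their reads is uncertain. The corepressor gene Ski (-0.06), a relative of Skil, and the deubiquitinase genes Usp4 (-0.02) and Usp9x (-0.26) were not called by edgeR. Usp9x was called lower by DESeq2 (adjusted p = 0.0460), which called 4 genes of the list lower, and by edgeR with library sizes alone (0.0486).

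In the branch that signals without SMADs, 1 of 12 tested genes rose and 2 fell. Map2k3, a kinase upstream of p38, rose from 47.2 ± 9.72 to 76.4 ± 4.10 CPM (log2 fold change 0.69, SE 0.14, edgeR adjusted p = 0.0162), while Map2k6, which acts at the same step, fell from 16.4 ± 1.10 to 10.1 ± 1.92 CPM (log2 fold change -0.70, SE 0.19, edgeR adjusted p = 0.0491). Traf6, the ubiquitin ligase that links the receptor to this branch, fell from 91.2 ± 5.45 to 69.9 ± 1.15 CPM (log2 fold change -0.38, SE 0.08, edgeR adjusted p = 0.0205). Tab2 (-0.21), Mapk14 (-0.22), the gene of p38 alpha, and Rhoa (-0.03) were not called. The Map2k6 call was lost whichever library was left out (adjusted p from 0.0689 to 0.174 by edgeR), and those of Map2k3 and Traf6 without myeloma replicate 3 or 4 or control replicate 3 or 5 (0.0568 to 0.0958). The effective-length offset ended the calls of Map2k6 (adjusted p = 0.0661 by edgeR) and Traf6 (0.0689), and the length and GC correction that of Traf6 (0.0865).

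Genes known to be raised by TGF-beta did not move one way: of 19 tested, 1 rose and 5 fell. Itgae, which encodes the CD103 integrin chain, rose from 87.5 ± 17.5 to 143 ± 6.68 CPM (log2 fold change 0.71, SE 0.13, edgeR adjusted p = 0.0123). Klf11, a SMAD-induced repressor, fell by 0.67 on the log2 scale (adjusted p = 0.0111 by edgeR), and Lrig1, an inhibitor of growth factor receptors, fell by 0.58 (adjusted p = 0.00922). Junb, a subunit of AP-1, fell from 1836 ± 475 to 871 ± 226 CPM (log2 fold change -1.08, SE 0.22, edgeR adjusted p = 0.0167). The other two that fell, Bambi and Smurf2, are described above. Nt5e (0.11), the gene of CD73, Foxp3 (-0.15) and Ski (-0.06) were not called. The call of Itgae was lost without myeloma replicate 4 (adjusted p = 0.0556), that of Klf11 without control replicate 3 (0.0544), and that of Junb without myeloma replicate 3 (0.0630) or 4 (0.0729) or control replicate 3 (0.0573), while that of Lrig1 was lost under an offset for effective length (0.0563) or under the length and GC correction (0.0564).

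Genes known to be restrained by TGF-beta in T cells rose in 4 of 13 tested and fell in 0 by edgeR (6.33% and 4.69% of all genes), with 5 higher and 0 lower at an unadjusted p under 0.05, and none fell by DESeq2 or limma-voom. Gzmb, the gene of granzyme B, rose from 20.7 ± 1.75 to 154 ± 26.1 CPM (log2 fold change 2.89, SE 0.14, edgeR adjusted p = 1.54e-05). Tbx21, the gene of the type 1 regulator T-bet, rose by 1.99 on the log2 scale (adjusted p = 0.00416 by edgeR), and Klrg1, a receptor of effector T cells, by 1.25 (adjusted p = 0.00299). All 3 calls were kept whichever library was left out. Gzma, the gene of granzyme A, had 28, 18 and 53 counts in the myeloma and 1, 1 and 8 counts in the control libraries, and its call (adjusted p = 0.0271 by edgeR) was lost in every fit that left out a library other than control replicate 5 (0.0610 to 0.114), and also once length and GC content were corrected for (0.0547). Il2rb (0.26), Gata3 (-0.02) and Stat4 (0.06) were not called. The rest of the tested list, named after the values were seen, was not called either. It holds the perforin gene Prf1 (0.09), Fasl (0.10), Eomes (0.16), Myc (-0.04), Id2 (0.57) and Ifng (0.80), so the cytotoxic genes did not all rise.

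**Figure D4:**
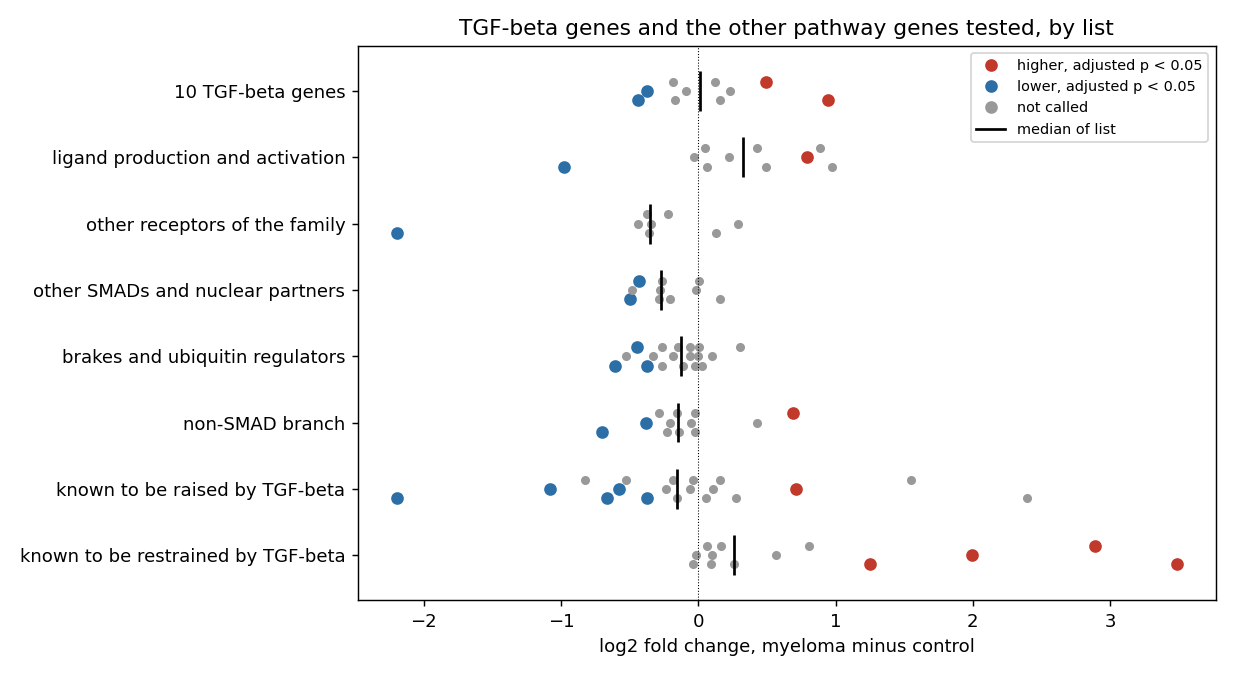
Log2 fold change (myeloma minus control) of the 10 genes and of the other pathway genes tested, 1 point per gene, by list, with called genes in red (higher) or blue (lower) and a line at each list's median. The 4 called genes known to be restrained by TGF-beta lie between 1.25 and 3.48, Tgfbi and Id1 of the list above them lie at 2.40 and 1.55 without a call, and the medians of the other lists lie between -0.35 and 0.33. Tgfbi was at 27.1 CPM in myeloma replicate 5 and at most 3.08 CPM in any other library. Id1 was at most 3.30 CPM in any library.

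Summed markers of other cells stood apart between the groups for some cell types and overlapped for others. The summed level of 8 plasma cell markers reached 283, 386 and 539 CPM in the 3 myeloma libraries, in the order of their numbers, against 145 to 220 CPM in controls, with 3 of the 8 above all controls. Jchain, the joining chain of secreted immunoglobulin, was at 37.7, 118.5 and 199 CPM in myeloma and at most 3.70 CPM in controls. In myeloma replicate 3, Jchain, Prdm1 and Tnfrsf17 were above every control, and Prdm1 (124 CPM) was the largest part of the sum. Sdc1 (1.10 CPM), Mzb1 (0.762), Derl3 (0.508), Xbp1 (65.9) and Irf4 (52.6) of that library lay within the control range. In every control library Prdm1 (44.5 to 90.8 CPM), Xbp1 (53.3 to 72.1) and Irf4 (38.1 to 56.4) were the highest of the 8. Which cells the RNA of Prdm1, Xbp1 and Irf4 came from was not tested, so the sum is not a measure of plasma cells alone. The sum of 9 macrophage and monocyte markers was 55.5, 129 and 422 CPM in myeloma and 38.6 to 97.0 CPM in controls, with 2 of the 9 above all controls. The plasma cell and macrophage sums were both highest in myeloma replicate 5, which also had the highest Pmepa1 and Skil. Without that library the log2 fold change was 0.82 for Pmepa1 (adjusted p = 0.0155 by edgeR) and 0.35 for Skil (adjusted p = 0.0746), and the plasma cell sums of the remaining myeloma libraries were also above every control. The part of these cells in the results for Pmepa1 and Skil was not tested.

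The sum of 8 B cell markers lay lower, at 28.6 to 69.2 CPM in myeloma and 46.5, 228 and 295 CPM in control replicates 1, 3 and 5, with 4 markers below all controls. Red cell lineage markers summed to between 3843 and 4767 CPM in myeloma and between 6711 and 14730 CPM in controls, with 5 of 6 below all controls. The part of B cell and red cell RNA in the results for Tgfbr2 and Smurf1 was not tested. Neutrophil markers (133 to 459 CPM in myeloma, 62.6 to 180 in controls; 1 of 8 above all controls) and CD8 T cell markers (13.5 to 22.4 and 11 to 13.8 CPM; 1 of 2 above) overlapped or nearly met between groups. Those of NK cells summed to at most 1.52 CPM in any library. Megakaryocyte and platelet markers summed to 5.855 to 12.1 CPM in myeloma and 3.34 to 4.47 CPM in controls, with 1 of 6 above all controls. No marker was at 0 in all 6 libraries. The 6 stromal markers summed to 128 to 161 CPM in myeloma and 172 to 203 CPM in controls, mostly Pecam1 (118 to 126 and 165 to 195 CPM), the 1 marker below all controls, while 3 of the 6 (Col1a2, Cxcl12 and Lepr) were above all controls.

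Among all genes tested, those whose log2 CPM ran most like Pmepa1, the member with the smallest p, over the 6 libraries were Rab29, Unc119 and Mvp. Their Pearson r with Pmepa1 were 0.997, 0.997 and 0.996 across the 6 libraries. All genes have the depths and the group difference of these libraries in common, so r is given only as a description. Rab29, which encodes a small GTPase, was at 26.8, 28.9 and 32.1 CPM in myeloma and 19.7, 15.1 and 17.6 CPM in controls, and like Pmepa1 it was highest in myeloma replicate 5 and lowest in control replicate 3.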

How the data were processed

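RNA of sorted CD4+ FOXP3-GFP+ cells was extracted with the RNeasy Micro kit and made into NEBNext Ultra libraries, per the labels' protocols. Strand is not kept by this kit, so reads of overlapping genes cannot be separated. Picard, STAR, RSEM, DESeq2 and the build mm10 are named in the submitters' processing notes, without versions or roles. The authors' deposited tables hold expected counts, which are RSEM's unnormalized estimates of reads per gene, per the file headers. The deposited TPM are scaled by the authors' RSEM run for effective length and library total, per the file headers. The deposited transcript lengths are means over isoforms, per the file headers. Reads matching more than 1 gene are shared out by RSEM's model.

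Identifiers without version matched reference symbols for 47224 of 47643 genes, and 419 kept the table's name. Expected counts were rounded, filtered with filterByExpr (minimum count 10, minimum total 15), TMM-scaled and passed to edgeR 4.0.16 under R 4.3.3 for its quasi-likelihood test (glmQLFit, then glmQLFTest) of myeloma minus control over all 6 libraries, with Benjamini-Hochberg adjustment over 13235 genes. Where no other tool is named, adjusted p-values are edgeR's. SE is the log2 fold change over the square root of F, and 95% intervals use the test's degrees of freedom. TPM and lengths entered no test. The test was tested on simulated data. Libraries of a group differed from each other by 8.45 to 55.3 times the counting variance, so none was the same library sequenced again. This ratio cannot tell whether the libraries of a group came from different mice. The labels tie no replicate number to a mouse, and the p-values describe only how these libraries vary.

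The members and lists were chosen with earlier results of these data known. Named are all members, every other pathway gene called, up to 3 per list without a call by highest mean CPM, and the 3 genes most like the member with the smallest p. Some other pathway genes were named after their values were seen. Alternatives were RLE factors, library sizes alone, 2 other filters, DESeq2 1.42.0, limma-voom (limma 3.58.1), an offset for effective length, a replicate block, removal of mitochondrial, haemoglobin and immunoglobulin genes, and fits without each library in turn. After the data were examined, 1 more was added, an offset fitted in each library by splines (4 degrees of freedom) on transcript length and GC content. The replicate block has number 4 only in myeloma and number 1 only in control, so its group difference rests on replicates 3 and 5. Gene positions are GENCODE M21 on GRCm38, promoters RefSeq on GRCm38.p6.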

Additional observations from a re-analysis of the deposited data

How the results depend on the processing

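No member changed direction under any of the 16 alternatives: of 160 values, 141 kept their side of the threshold and 19 lost their call. With edgeR, 1 member was higher with the effective-length offset, 1 with library sizes alone and 1 with the replicate block, against 2, and 1 in each fit without a library. Members lower numbered 0 with the length and GC correction (1 at an unadjusted p under 0.05), 0 with the replicate block (2 unadjusted) and 0 to 2 without a library, 0 without control replicate 3 or myeloma replicate 4.

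Of all genes, 454 were higher and 303 lower with the length and GC correction, 1337 and 1102 without a filter, and 362 and 142 with the replicate block. Genes lower numbered 405 with the effective-length offset and 1004 with library sizes alone. Without 1 library the ranges were 331 to 836 higher and 123 to 546 lower. Pathway genes higher numbered 12 without a filter and 3 to 7 without a library, and those lower 6 with the length and GC correction, 2 with the replicate block and 2 to 9 without a library. The cause was not tested.

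The replicate numbers shared by the groups, 3 and 5, had correlations of deviations from the group means of 0.03 and 0.10. These come from few libraries, so they cannot tell whether libraries with the same number belong together, and the labels do not say. In the replicate block, myeloma replicate 4 and control replicate 1 have no partner, so the changes rest on replicates 3 and 5 of each group. The members' changes there were 1.11 for Pmepa1 (adjusted p = 0.0144 by edgeR), 0.58 for Skil (0.141), -0.40 for Tgfbr2 (0.110) and -0.39 for Smurf1 (0.140).

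Signs turned only for pathway genes that were not called. Nrros was at -0.0088 with library sizes alone and -0.0332 to 0.114 without a library, Furin at 0.0810 with the length and GC correction and -0.197 to 0.0548, Ski at 0.0539 and -0.147 to 0.0005, and Cbfb at -0.128 to 0.0430 without a library. Rhoa was at 0.0348 with that correction, 0.0213 with the replicate block and -0.0786 to 0.0160 without a library. Stat4 was at -0.0083 with the correction, -0.0107 with library sizes alone, -0.0764 with the replicate block and -0.0593 to 0.252, and Gata3 at 0.0090 with the block and -0.0974 to 0.0643. With 3 libraries a group, intervals of the members without a call still hold changes of up to 0.43 on the log2 scale, and Bambi and Gzma rest on few counts.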
